A study of Mus musculus with 12 samples.

Results

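The genes described are 7 receptors of the growing blood vessel wall, chosen by gene symbol. They are Flt1 and Kdr (VEGFR1 and VEGFR2, receptors of vascular endothelial growth factors), Nrp1 (neuropilin 1, a coreceptor of VEGF-A and semaphorins) and Tek (TIE2, the angiopoietin receptor). The others are Tie1 (its relative and partner), Eng (endoglin, a coreceptor of the TGF-beta family) and Ednrb (the endothelin B receptor). Together they had 10 probe sets annotated to 1 of these symbols alone, out of 12422 probe sets and 8251 genes on the array. Their RNA was measured in structures dissected by morphology from E14.5 (embryonic day; Theiler stage 22) kidneys of wild-type Swiss Webster mice of unknown sex. The single S-shaped body group had 3 arrays, each from 1 structure. The pooled S-shaped body group and the renal vesicle group had 3 arrays each, every one from a pool of 20 structures. The collecting duct group had 3 arrays, each from the collecting duct system of 1 sample, and served the study as its reference. All RNA passed 2 rounds of T7 amplification before hybridization to Affymetrix MG_U74Av2 arrays. The labels call each sample a biological replicate but do not say how many embryos or litters were used, and every p-value therefore rests on the spread among these 3 samples a group.

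VEGF-A binds both Flt1 and Kdr on endothelial cells; Kdr carries most of the growth and survival signal, and Flt1 binds VEGF-A tightly with weaker signalling. Angiopoietins act through Tek, whose output Tie1 modifies, and these receptors are used as vessels mature. In the developing kidney, endothelial precursors move into the cleft of the S-shaped body, where the glomerular capillary forms opposite the podocyte precursors, which make VEGF-A.

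The promoter sequences of Flt1 and Kdr are shown as those of the VEGF-A receptor pair, and those of Tie1 and Eng as the members outside the VEGF system that hold a motif searched. All 7 members matched RefSeq promoter entries on GRCm38.p6. Each stretch holds the 250 bases before the annotated start, 5′ to 3′ on the gene's own strand. Capitals mark AGGAAG and CCGGAA, core letters of the kind bound by ETS factors, and TATAAA, each searched on both strands, so that CTTCCT and TTCCGG are the first pair on the other strand.
Flt1: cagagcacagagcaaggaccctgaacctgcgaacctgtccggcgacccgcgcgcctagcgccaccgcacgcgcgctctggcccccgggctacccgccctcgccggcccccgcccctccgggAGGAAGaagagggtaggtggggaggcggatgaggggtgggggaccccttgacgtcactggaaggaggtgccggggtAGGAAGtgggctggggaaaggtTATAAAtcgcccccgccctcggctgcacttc
Kdr: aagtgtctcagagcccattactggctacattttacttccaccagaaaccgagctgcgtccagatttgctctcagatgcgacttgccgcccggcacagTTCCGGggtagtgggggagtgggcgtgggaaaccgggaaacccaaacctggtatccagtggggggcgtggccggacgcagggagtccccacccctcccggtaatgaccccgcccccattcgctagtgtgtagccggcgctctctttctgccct
Tie1: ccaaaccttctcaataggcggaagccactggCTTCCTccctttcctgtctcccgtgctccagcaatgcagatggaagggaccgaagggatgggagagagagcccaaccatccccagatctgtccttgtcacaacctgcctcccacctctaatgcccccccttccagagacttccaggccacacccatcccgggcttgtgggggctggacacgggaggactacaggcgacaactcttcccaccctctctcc
Eng: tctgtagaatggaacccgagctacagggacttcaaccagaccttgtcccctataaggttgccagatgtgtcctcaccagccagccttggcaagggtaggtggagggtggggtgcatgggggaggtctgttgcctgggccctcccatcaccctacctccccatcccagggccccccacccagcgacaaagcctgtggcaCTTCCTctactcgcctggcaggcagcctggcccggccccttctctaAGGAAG
The Flt1 stretch is chr5:147726012-147726261, minus strand, with AGGAAG beginning 129 and 53 bases before the start and TATAAA 31 bases before it. The Kdr stretch is chr5:75978456-75978705, minus strand, with CCGGAA on the other strand 153 bases before the start. The Tie1 stretch is chr4:118489850-118490099, minus strand, with AGGAAG on the other strand 219 bases before the start. The Eng stretch is chr2:32646345-32646594, plus strand, with AGGAAG on the other strand at 52 bases and on the gene's strand at 6 bases before the start. AGGAAG was found in 4 of 7 members (Flt1, Tie1, Nrp1 and Eng), against 29.5% of 32851 promoter stretches of the same length. CCGGAA was found in 1 of 7 members, against 12% of stretches, and TATAAA in 1 of 7, against 12.4%. Tek and Ednrb held none of the 3. These matches describe letters only. They were not tested against expression.

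Levels below are log2(normalized intensity + 7.22), so a log2 change understates the change of a dim gene, and 2.85 is the floor that stands for an intensity of 0 or less. Background was set for each array from its negative values: a signal had to be larger than the depth below 0 that marks the lowest 5% of the array's probe sets. Levels are compared between groups for 1 probe set at a time, never between genes. Where a gene was above background on no array of the dimmer group, the change is also given as a lower bound, "at least N-fold", set against the lowest signal that counts as above background. A change was called at an adjusted p under 0.05 from limma, with Benjamini-Hochberg adjustment over all probe sets tested.

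All 7 receptor genes were higher in pooled S-shaped bodies than in renal vesicles and than in collecting duct, by limma. In renal vesicles, 3 of 7 (Tie1, Nrp1 and Eng) were higher than in collecting duct and the other 4 did not pass the test. Among all genes tested, 18.2% were called higher in pooled S-shaped bodies against renal vesicles, 18.9% in pooled S-shaped bodies against collecting duct, and 13.3% in renal vesicles against collecting duct. The members' median log2 change was 3.47, 5.0 and 1.06 in these 3 comparisons, against -0.05, -0.07 and -0.01 over all genes tested. Single S-shaped bodies had 7 of 7 members higher than collecting duct (16.1% of all genes tested) and 6 of 7 higher than renal vesicles (12.3%), with Tek as the exception. Between single and pooled S-shaped bodies 0 of 7 members were called. The comparisons share arrays, so their agreement is not independent evidence. Each array is bulk RNA of 1 whole structure, of a pool of 20 structures or of a collecting duct system. In such RNA, fewer cells of a type and less RNA per cell cannot be told apart.

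**Figure D1:**
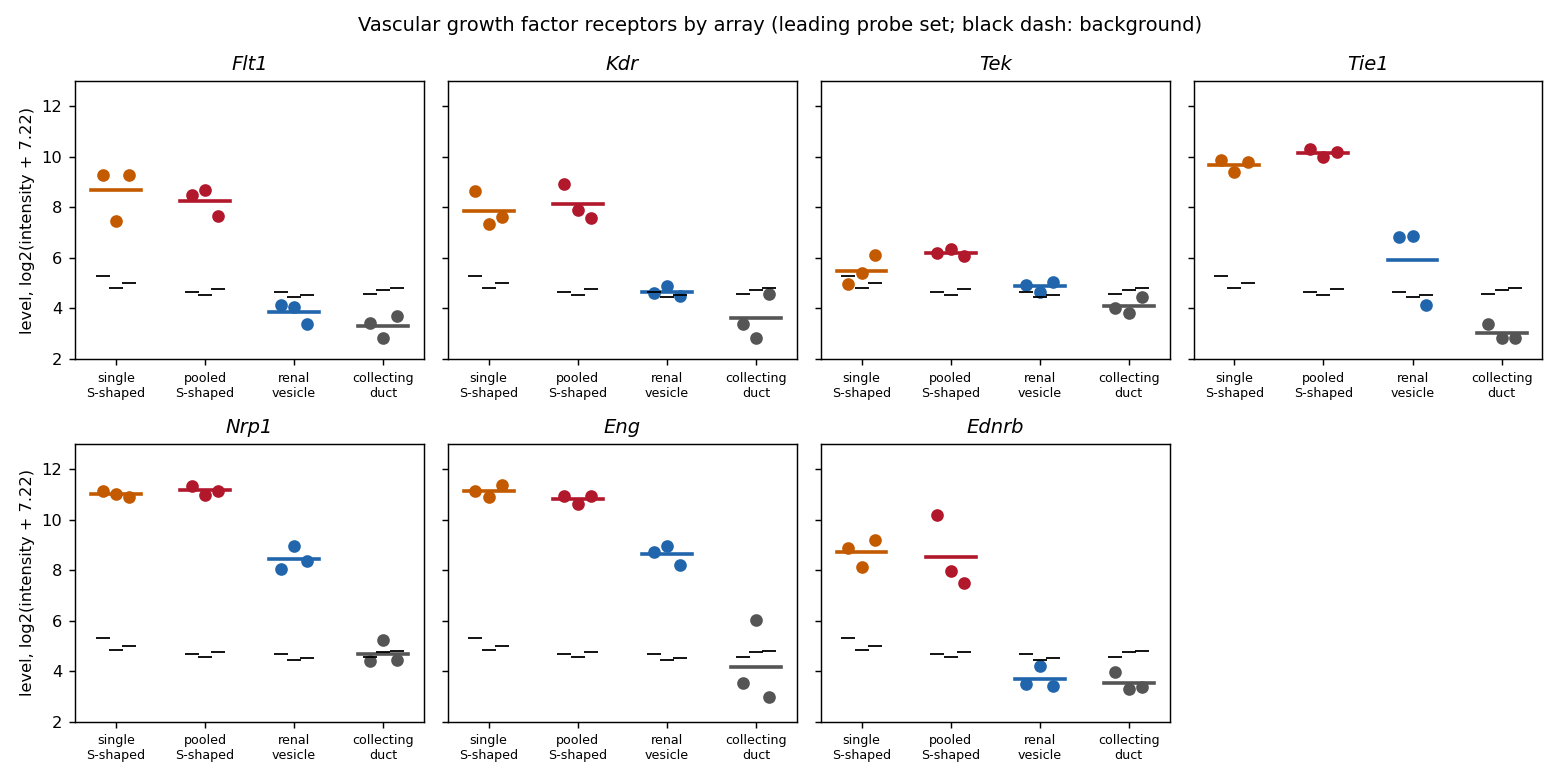
Level of the leading probe set of each receptor gene on each of the 12 arrays, as log2(intensity + 7.22), by group; dots are arrays, coloured lines are group means and black dashes are each array's background level. Both S-shaped body groups lie above renal vesicles and collecting duct for every gene but Tek, whose lowest single S-shaped body array (4.95) is under the highest renal vesicle array (5.05).

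Flt1 was high in both kinds of S-shaped body sample and near or under background elsewhere. Probe set 98452_at read 9.29, 7.47 and 9.28 in single S-shaped bodies, 8.50, 8.67 and 7.64 in the pooled S-shaped bodies, 4.12, 4.06 and 3.37 in renal vesicles, and 3.42, 2.85 and 3.69 in collecting duct. No renal vesicle or collecting duct array was above background, and neither S-shaped group overlapped them. Flt1 was higher in pooled S-shaped bodies than in renal vesicles by 4.42 ± 0.36 (log2 change ± SE, adjusted p = 1.07e-05, at least 13.2-fold) and than in collecting duct by 4.95 ± 0.36 (adjusted p = 2.09e-06, at least 11.8-fold). Single S-shaped bodies were higher than renal vesicles by 4.83 ± 0.52 (adjusted p = 0.000476, at least 17.5-fold) and than collecting duct by 5.36 ± 0.52 (adjusted p = 0.000176, at least 15.8-fold). Without single S-shaped body replicate 4, its dimmest array, these changes were 5.44 and 5.96. Renal vesicles and collecting duct differed by 0.53 ± 0.36 (adjusted p = 0.318), with both groups under background. The second Flt1 probe set, 98453_at, gave the same order: it read 6.73, 5.48 and 7.82 in single and 7.64, 7.53 and 7.44 in pooled S-shaped bodies, and 2.85 on all 6 other arrays. It was higher in pooled S-shaped bodies than in renal vesicles by 4.68 ± 0.24 (adjusted p = 2.2e-06, at least 7.93-fold).

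Kdr, the main signalling receptor of VEGF-A, followed the same order. Its probe set 104265_at read 8.64, 7.35 and 7.63 in single S-shaped bodies, 8.93, 7.90 and 7.60 in the pooled S-shaped bodies, 4.60, 4.90 and 4.51 in renal vesicles, and 3.40, 2.85 and 4.58 in collecting duct. Only renal vesicle replicate 3 was above background in its group, and no collecting duct array was. Every S-shaped body array lay above every other array, while the highest collecting duct array fell among the renal vesicle arrays. The pooled S-shaped bodies exceeded renal vesicles by 3.47 ± 0.45 (adjusted p = 0.000185) and collecting duct by 4.53 ± 0.45 (adjusted p = 1.99e-05, at least 10.8-fold). Single S-shaped bodies exceeded renal vesicles by 3.20 ± 0.39 (adjusted p = 0.000762) and collecting duct by 4.26 ± 0.52 (adjusted p = 0.000518, at least 8.99-fold). The difference of renal vesicles from collecting duct, 1.06 ± 0.45 (adjusted p = 0.111), did not pass the test. It passed without collecting duct replicate 3, at 1.54 ± 0.40 (adjusted p = 0.0243).

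Nrp1, the VEGF-A and semaphorin coreceptor, was graded over the 3 structures. Probe set 95016_at read 11.12, 11.00 and 10.90 in single S-shaped bodies, 11.34, 10.99 and 11.12 in the pooled S-shaped bodies, 8.04, 8.97 and 8.36 in renal vesicles, and 4.40, 5.22 and 4.43 in collecting duct, where 1 of 3 arrays was above background. The 3 structures did not overlap. Nrp1 was higher in pooled S-shaped bodies than in renal vesicles by 2.69 ± 0.27 (adjusted p = 4.22e-05), and higher in renal vesicles than in collecting duct by 3.77 ± 0.27 (adjusted p = 3.43e-06). The full step of pooled S-shaped bodies over collecting duct was 6.46 ± 0.27 (adjusted p = 5.7e-08). In single S-shaped bodies the change was 2.55 ± 0.23 over renal vesicles (adjusted p = 0.000304) and 6.32 ± 0.26 over collecting duct (adjusted p = 2.05e-06). A second probe set, 92773_at, read 9.87, 9.75 and 10.02 in single and 10.22, 10.19 and 10.09 in pooled S-shaped bodies. On it, renal vesicles read 8.20, 8.83 and 8.25 and collecting duct 4.63, 4.32 and 4.69. It gave the same order with a smaller step of pooled S-shaped bodies over renal vesicles, 1.74 ± 0.20 (adjusted p = 8.44e-05), and a like step of renal vesicles over collecting duct, 3.88 ± 0.20 (adjusted p = 2.83e-07).

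Tek, the angiopoietin receptor, changed least of the 7 in each comparison in which all 7 were called. Its probe set 102720_at read 4.95, 5.40 and 6.12 in single S-shaped bodies, 6.19, 6.36 and 6.09 in the pooled S-shaped bodies, 4.94, 4.64 and 5.05 in renal vesicles, and 4.02, 3.81 and 4.47 in collecting duct. It was above background on 2 of 3 single S-shaped body arrays, on all 3 arrays of pooled S-shaped bodies and of renal vesicles, and on none of collecting duct. Single S-shaped bodies overlapped both pooled S-shaped bodies and renal vesicles. Tek was higher in pooled S-shaped bodies than in renal vesicles by 1.34 ± 0.26 (adjusted p = 0.00234) and than in collecting duct by 2.12 ± 0.26 (adjusted p = 9.61e-05, at least 2.85-fold). Renal vesicles stood 0.78 ± 0.26 over collecting duct with no overlap, but the adjusted p was 0.0519. That p fell to 0.0443 without renal vesicle replicate 3 and to 0.0365 without collecting duct replicate 3. Single S-shaped bodies were 1.39 ± 0.41 over collecting duct (adjusted p = 0.0317, at least 1.72-fold), and 0.61 ± 0.42 over renal vesicles (adjusted p = 0.318). The call against collecting duct was lost without single replicate 4 (1.44, adjusted p = 0.055), single replicate 5 (1.08, adjusted p = 0.0777), or collecting duct replicate 1 (1.35, adjusted p = 0.105), 2 (1.25, adjusted p = 0.118) or 3 (1.58, adjusted p = 0.0586).

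Tie1 is read by a pair of probe sets that disagree. Probe set 161184_f_at read 9.86, 9.41 and 9.79 in single S-shaped bodies, 10.31, 9.98 and 10.20 in the pooled S-shaped bodies, 6.81, 6.85 and 4.13 in renal vesicles, and 3.37, 2.85 and 2.85 in collecting duct. Renal vesicle replicates 2 and 3 were above background and replicate 4 was not, so the renal vesicle arrays spread over a wide range. This probe set was higher in pooled S-shaped bodies than in renal vesicles by 4.23 ± 0.58 (adjusted p = 0.000278) and than in collecting duct by 7.14 ± 0.58 (adjusted p = 5.48e-06, at least 44-fold). In renal vesicles it was 2.90 ± 0.58 over collecting duct (adjusted p = 0.00462, at least 2.34-fold). Single S-shaped bodies were 3.76 ± 0.64 over renal vesicles (adjusted p = 0.00314) and 6.66 ± 0.28 over collecting duct (adjusted p = 2.33e-06, at least 31.6-fold). Without renal vesicle replicate 4 the step of renal vesicles over collecting duct was 3.80 ± 0.23, that of pooled S-shaped bodies over renal vesicles 3.33 ± 0.23, and that of single S-shaped bodies over renal vesicles 2.86. Probe set 99936_at was above background on none of the 12 arrays. It read 4.62, 2.85 and 2.85 in single S-shaped bodies, 4.24, 4.13 and 2.85 in pooled S-shaped bodies, and 2.85 on the other 6. The suffix of the brighter probe set marks probes shared by related sequences, so its signal is not certain to be Tie1 alone. The Tie1 values therefore rest on that 1 probe set.

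Eng, the TGF-beta family coreceptor of endothelial cells, was graded like Nrp1. Its probe set 100134_at read 11.12, 10.89 and 11.36 in single S-shaped bodies, 10.93, 10.60 and 10.93 in the pooled S-shaped bodies, 8.70, 8.95 and 8.22 in renal vesicles, and 3.55, 6.02 and 2.98 in collecting duct. The 3 structures did not overlap, and only collecting duct replicate 2 was above background in its group. Eng was higher in pooled S-shaped bodies than in renal vesicles by 2.20 ± 0.60 (adjusted p = 0.0143) and in single S-shaped bodies by 2.50 ± 0.22 (adjusted p = 0.000256). Against collecting duct it was higher by 4.44 ± 0.60 in renal vesicles (adjusted p = 0.000352), by 6.64 ± 0.60 in pooled S-shaped bodies (adjusted p = 1.04e-05) and by 6.94 ± 0.68 in single S-shaped bodies (adjusted p = 0.000181). Without collecting duct replicate 2 these were 5.36, 7.56 and 7.86, and without collecting duct replicate 3 they were 3.84, 6.04 and 6.34. The step of pooled S-shaped bodies over renal vesicles lost its call without renal vesicle replicate 4, at 2.00 ± 0.70 (adjusted p = 0.0535).

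Ednrb, the endothelin B receptor, was above background only in S-shaped bodies. Its probe set 103550_at read 8.86, 8.14 and 9.18 in single S-shaped bodies, 10.17, 7.97 and 7.47 in the pooled S-shaped bodies, 3.49, 4.22 and 3.42 in renal vesicles, and 3.95, 3.28 and 3.37 in collecting duct. None of the renal vesicle and collecting duct arrays was above background, and they did not reach the S-shaped body arrays. Pooled replicate 1 stood above its group, and the single S-shaped bodies fell within the pooled range. Ednrb was higher in pooled S-shaped bodies than in renal vesicles by 4.82 ± 0.58 (adjusted p = 0.000119, at least 15.9-fold) and than in collecting duct by 5.0 ± 0.58 (adjusted p = 6.25e-05, at least 14.2-fold). Without pooled replicate 1 the changes were 4.0 and 4.18. Single S-shaped bodies were 5.01 ± 0.39 over renal vesicles (adjusted p = 0.000195, at least 18.1-fold) and 5.19 ± 0.36 over collecting duct (adjusted p = 2.92e-05, at least 16.3-fold). Renal vesicles against collecting duct gave 0.18 ± 0.58, with a 95% interval from -1.10 to 1.46 (adjusted p = 0.858) and both groups under background.

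**Figure D2:**
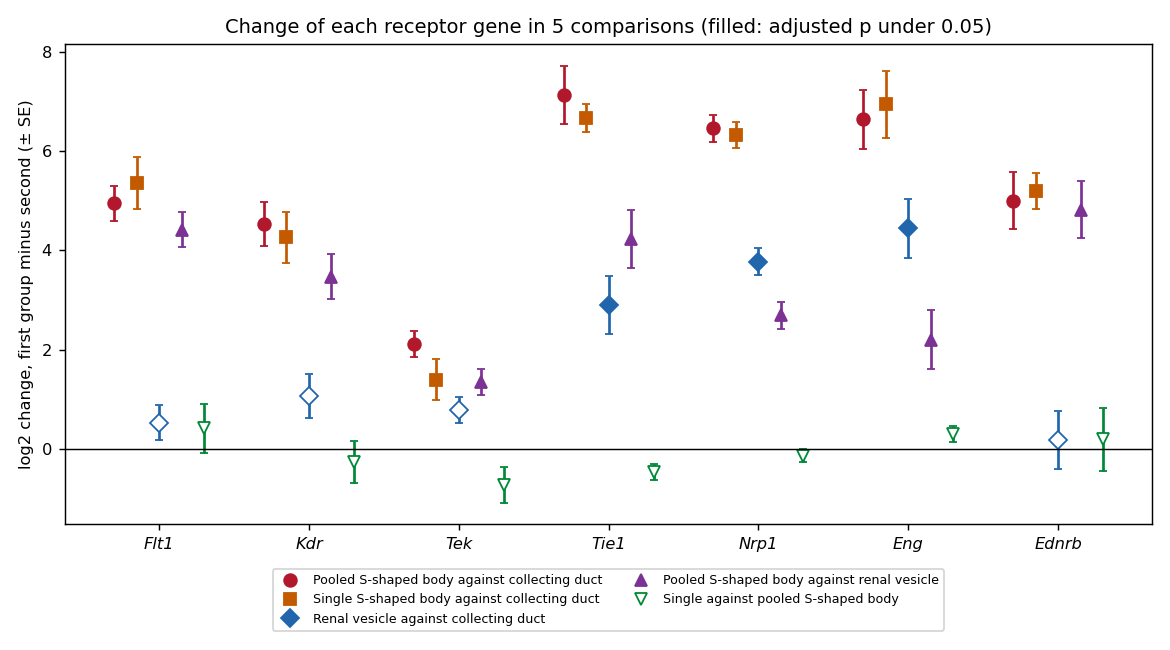
Log2 change (± SE) of each receptor gene's leading probe set in 5 comparisons, first group minus second; filled symbols have a limma adjusted p under 0.05. Nrp1, Eng and Tie1 carry filled symbols for renal vesicle against collecting duct, while Flt1, Kdr, Tek and Ednrb carry open ones.

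The study also asked whether a single S-shaped body could be amplified in place of a pool. None of the 7 receptors passed the test between single and pooled S-shaped bodies, and 1 of them had an unadjusted p under 0.05. In this comparison limma called 0.356% of all genes tested in either direction, and 1633 probe sets had an unadjusted p under 0.05. Flt1 differed by 0.41 (95% interval -0.73 to 1.56), Kdr by -0.27 (-1.24 to 0.70), and Ednrb by 0.19 (-1.26 to 1.64). These intervals leave room for changes of over 1 log2 unit in at least 1 direction. The intervals of Nrp1, at -0.14 (-0.44 to 0.15), and of Eng, at 0.30 (-0.06 to 0.66), were narrower. Tek differed by -0.72 (-1.55 to 0.10). Tie1, the member with an unadjusted p under 0.05, was lower in single S-shaped bodies by -0.48 (-0.85 to -0.10, adjusted p = 0.195), and its 3 single arrays lay below its 3 pooled arrays. Such separation in the lower direction was seen in 13.9% of all genes tested. These differences are of the leading probe sets. The second Flt1 probe set, 98453_at, went the other way, with means of 6.68 in single and 7.54 in pooled S-shaped bodies and overlapping arrays. On the second Nrp1 probe set, 92773_at, the 3 single arrays also lay below the 3 pooled arrays (means 9.88 and 10.17).

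Of 22 ligand genes listed, 19 had a probe set and 13 were tested in the 3 pooled comparisons, where 6 rose and 2 fell in pooled S-shaped bodies against renal vesicles. Over all genes tested, 18.2% were called higher and 20.2% lower in that comparison, 18.9% higher and 21.2% lower in pooled S-shaped bodies against collecting duct, and 13.3% higher and 12.3% lower in renal vesicles against collecting duct. The same counts, 6 and 2, held against collecting duct, and renal vesicles had 4 higher and 1 lower than collecting duct. The median log2 change of the tested ligands was 0.53, 0.43 and 0.00 in these comparisons. In single S-shaped bodies 1 of 13 was higher and 2 lower than in renal vesicles, and 4 of 15 were higher and 2 lower than in collecting duct. Against pooled S-shaped bodies 0 of 12 were called. The shares over all genes for single S-shaped bodies were 12.3% higher and 15.6% lower than renal vesicles. They were 16.1% higher and 18.9% lower than collecting duct, and 0.223% higher and 0.134% lower than pooled S-shaped bodies.

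Vegfa, the ligand of Flt1, Kdr and Nrp1, read 6.69, 6.95 and 8.67 in single S-shaped bodies, 8.28, 8.16 and 7.61 in the pooled S-shaped bodies, 6.17, 7.59 and 6.73 in renal vesicles, and 5.20, 5.74 and 6.11 in collecting duct. Unlike its receptors it was above background on every array, and the single S-shaped bodies overlapped both the pooled ones and renal vesicles. It was higher in pooled S-shaped bodies than in renal vesicles by 1.18 ± 0.36 (adjusted p = 0.024), and renal vesicles were 1.15 ± 0.36 over collecting duct (adjusted p = 0.0393). Vegfc, a ligand of Flt4 and Kdr, read 7.64, 6.15 and 8.20 in single S-shaped bodies, 7.96, 8.06 and 7.28 in the pooled S-shaped bodies, 7.42, 6.0 and 6.20 in renal vesicles, and 2.85 on every collecting duct array. It was higher in renal vesicles, by 3.69 ± 0.36 over collecting duct (adjusted p = 3.52e-05, at least 3.57-fold), where its receptor Kdr did not pass the test. Vegfb, a ligand of Flt1, was highest in renal vesicles: it was higher in renal vesicles than in collecting duct by 0.97 ± 0.17 (adjusted p = 0.00187) and lower in pooled S-shaped bodies than in renal vesicles, at -1.16 ± 0.17 (adjusted p = 0.000356). Pgf, placental growth factor, another Flt1 ligand, was higher in pooled S-shaped bodies than in renal vesicles by 0.91 ± 0.25 (adjusted p = 0.0145).

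Angpt2, a Tek ligand that can oppose Angpt1, was higher in pooled S-shaped bodies than in renal vesicles by 0.93 ± 0.29 (adjusted p = 0.0267) and in renal vesicles than in collecting duct by 1.03 ± 0.29 (adjusted p = 0.0248, at least 1.19-fold). Angpt1, the activating ligand, was above background on none of the 12 arrays. Edn1, a ligand of Ednrb, passed no test among these structures: pooled S-shaped bodies differed from renal vesicles by -0.31 ± 0.29 (adjusted p = 0.43) and from collecting duct by -0.66 ± 0.29 (adjusted p = 0.0961). Edn2 was above background on no array, and Edn3 on 1 array only, single S-shaped body replicate 4 (5.39). Tgfb2, a ligand of the receptor complex that Eng joins, was above background in S-shaped bodies alone and was higher in pooled S-shaped bodies than in renal vesicles by 2.39 ± 0.41 (adjusted p = 0.00101, at least 2.93-fold). Tgfb1 was at the floor on every array, and Tgfb3 did not pass that test (0.06 ± 0.32, adjusted p = 0.9). Bmp10, another listed ligand, was above background on all 3 single and on 0 pooled S-shaped body arrays. It did not pass the test between them (1.49 ± 0.50, adjusted p = 0.183). Among the semaphorins, which bind neuropilins or plexins, Sema3c was above background in collecting duct only. It was lower than in collecting duct in both kinds of pooled sample, by at least 2.19-fold in renal vesicles and 2.02-fold in S-shaped bodies. The log2 change was -2.83 ± 0.35 in both (adjusted p = 0.00019 in renal vesicles and 9.55e-05 in S-shaped bodies). It is the same because both were at the floor on every array. Sema3f was lower in pooled S-shaped bodies than in renal vesicles, at -1.62 ± 0.29 (adjusted p = 0.00154, at least 1.8-fold). Sema3e was higher there by 2.08 ± 0.69 (adjusted p = 0.0356, at least 1.31-fold), with 1 of the 3 pooled arrays at the floor.

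**Figure D3:**
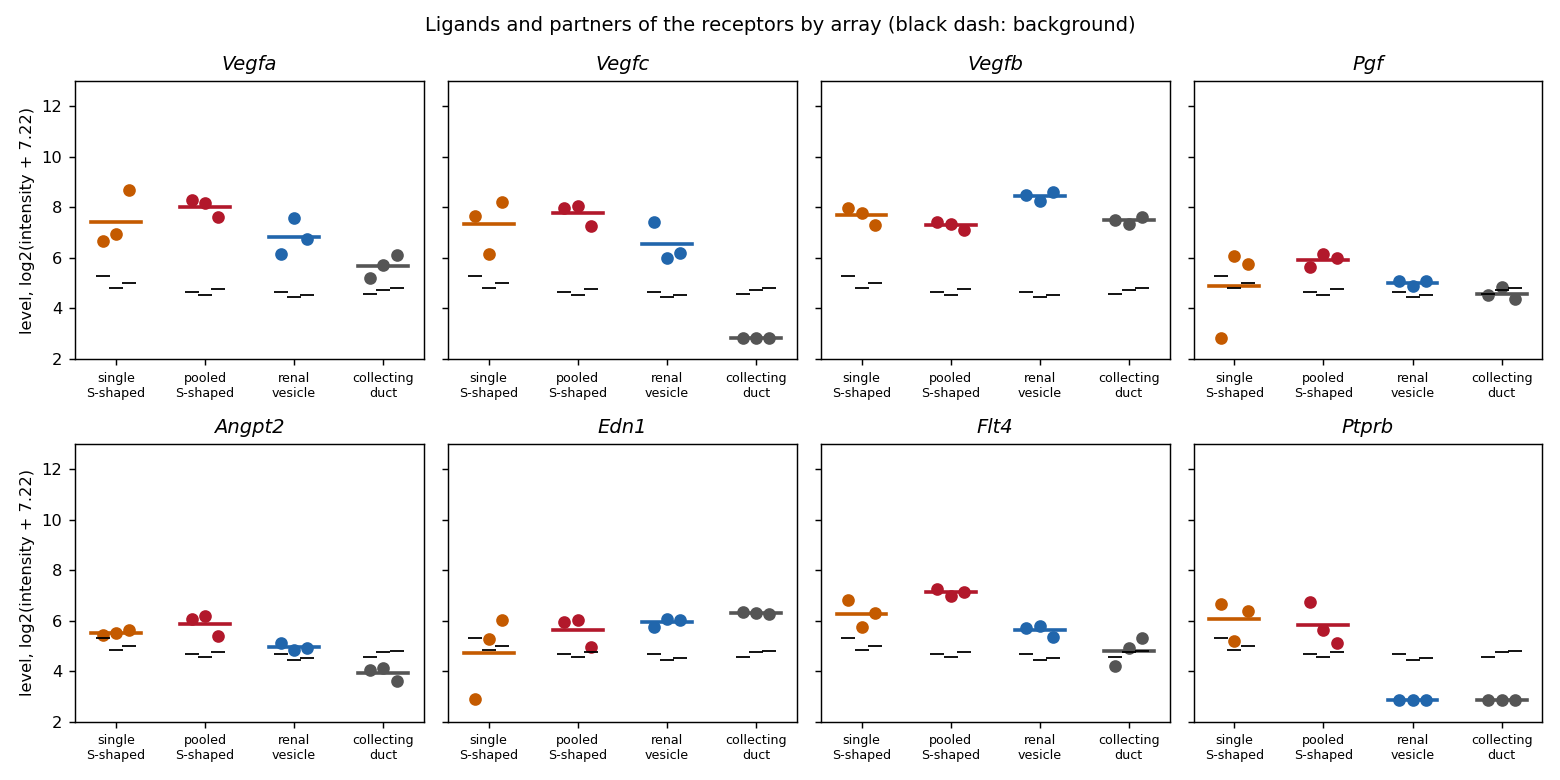
Level of 6 ligands and 2 partner receptors on each of the 12 arrays, as log2(intensity + 7.22), by group, with group means as coloured lines and background as black dashes. Vegfc and Ptprb are at the floor of 2.85 on all collecting duct arrays, Ptprb also on all renal vesicle arrays, and Edn1 passed no test between structures.

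Of the 16 partner receptors with a probe set, 10 were tested in the pooled comparisons. Against renal vesicles, 6 were higher and 0 lower in pooled S-shaped bodies (median 1.13). Against collecting duct, 6 were higher and 1 lower in pooled S-shaped bodies, and 2 higher and 1 lower in renal vesicles. Single S-shaped bodies had 4 of 12 higher than renal vesicles, 5 of 12 higher than collecting duct, and 1 of 13 (Plxnd1) higher than pooled S-shaped bodies. Over all genes tested, 18.2% were higher and 20.2% lower in pooled S-shaped bodies than in renal vesicles. The shares in the other comparisons are given with the ligands. Ptprb, the phosphatase VE-PTP that acts on Tek, read 6.67, 5.18 and 6.38 in single S-shaped bodies, 6.73, 5.64 and 5.13 in pooled S-shaped bodies, and 2.85 on every other array. It was at least 2.44-fold higher in pooled S-shaped bodies than in renal vesicles (log2 change 2.98 ± 0.39, adjusted p = 0.000185). Flt4 (VEGFR3), the relative of Flt1 and Kdr, was higher in pooled S-shaped bodies than in renal vesicles by 1.52 ± 0.29 (adjusted p = 0.00195). Acvrl1 (ALK1), which signals with Eng, was higher by 1.08 ± 0.30 (adjusted p = 0.0156) but did not differ from collecting duct by the test (0.36 ± 0.30, adjusted p = 0.378). Tgfbr1 and Tgfbr2, also listed, were above background on no array. Plxnd1, a semaphorin receptor, was already higher in renal vesicles than in collecting duct by 2.39 ± 0.27 (adjusted p = 9.43e-05). Plxna2, a plexin that pairs with neuropilins, was lower in renal vesicles than in collecting duct, at -2.44 ± 0.35 (adjusted p = 0.00058).

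Of 21 signal transducers tested, 6 were higher and 4 lower in pooled S-shaped bodies than in renal vesicles (median 0.16), 4 higher and 5 lower than in collecting duct, and 2 higher and 5 lower in renal vesicles than in collecting duct. The shares called over all genes in these 3 comparisons, and in those of single S-shaped bodies, are given with the ligands. In single S-shaped bodies 2 were higher and 2 lower than in renal vesicles, 4 higher and 5 lower than in collecting duct, and 0 of 21 were called against pooled S-shaped bodies. Fyn, a Src family kinase, was higher in renal vesicles than in collecting duct by 1.06 ± 0.14 (adjusted p = 0.000385), and Id1, a target of Alk1 signalling, was lower at -1.10 ± 0.20 (adjusted p = 0.00263). Nos3, the endothelial nitric oxide synthase, was above background on no array.

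Most transcription factors listed for their action on endothelial genes were higher in pooled S-shaped bodies than in renal vesicles. Of 20 tested, 14 were higher and 1 lower in pooled S-shaped bodies than in renal vesicles (median 1.22), and 13 higher and 2 lower than in collecting duct. In renal vesicles 5 were higher and 3 lower than in collecting duct. Single S-shaped bodies had 10 of 19 higher and 2 lower than renal vesicles, 12 of 20 higher and 2 lower than collecting duct, and 0 of 20 called against pooled S-shaped bodies. Over all genes tested, 18.2% were higher and 20.2% lower in pooled S-shaped bodies than in renal vesicles. In renal vesicles against collecting duct the shares were 13.3% and 12.3%, and those of the other comparisons are given with the ligands. Klf2, a flow-responsive factor of endothelium, read 7.58, 6.15 and 7.81 in single S-shaped bodies, 7.38, 7.37 and 6.49 in pooled S-shaped bodies, and 2.85 on all other arrays. It was at least 5.78-fold higher in pooled S-shaped bodies than in renal vesicles (log2 change 4.23 ± 0.30, adjusted p = 6.93e-06). Sox18, which acts in early vessels, was higher by 4.47 ± 0.38 (adjusted p = 1.54e-05), and Ets1, an ETS factor, by 2.03 ± 0.28 (adjusted p = 0.000245, at least 3.42-fold). Gata2 was lower in renal vesicles than in collecting duct, at -2.66 ± 0.20 (adjusted p = 4.87e-06). Foxc2, which is also counted among the podocyte markers below, was higher in renal vesicles than in collecting duct by 7.34 ± 0.24 (adjusted p = 3.32e-08, at least 54-fold). Hey1 read 9.73, 10.33 and 10.03 in renal vesicles and 8.51, 8.70 and 8.82 in pooled S-shaped bodies.

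Most of the other endothelial markers tested were also higher in S-shaped bodies. The mean level of 15 such genes was 7.06 ± 0.27 in single S-shaped bodies, 7.20 ± 0.17 in the pooled S-shaped bodies, 5.13 ± 0.39 in renal vesicles and 4.10 ± 0.03 in collecting duct (SD, n = 3 each). Their summed intensity ranged from 5119 to 6267 in single S-shaped bodies, from 4910 to 6221 in pooled S-shaped bodies, from 1323 to 2894 in renal vesicles and from 320 to 346 in collecting duct. Of 13 tested, 10 were higher in pooled S-shaped bodies than in renal vesicles and 11 than in collecting duct, while 4 were higher and 1 lower in renal vesicles than in collecting duct. Single S-shaped bodies had 10 of 13 higher than renal vesicles, 10 of 13 higher than collecting duct and 0 of 13 called against pooled S-shaped bodies. Among all genes, 18.2% were higher in pooled S-shaped bodies than in renal vesicles and 18.9% than in collecting duct. In renal vesicles against collecting duct 13.3% were higher and 12.3% lower. For single S-shaped bodies 12.3% were higher than in renal vesicles and 16.1% than in collecting duct. On collecting duct arrays Cdh5, Pecam1, Cldn5, Cd34 and Icam2 were never above background, and 11 of the 15 in all were not. Thbd, Cav1 and Gja5 were above it on all 3 of these arrays. Thbd was the marker lower in renal vesicles than in collecting duct, at -1.72 ± 0.32 (adjusted p = 0.00262). Neither Thbd (0.66 ± 0.32, adjusted p = 0.125) nor Gja5 (0.17 ± 0.255, adjusted p = 0.642) passed the test in pooled S-shaped bodies against collecting duct. On renal vesicle arrays Aplnr, Gja4, Icam2 and Lyve1 were never above background, while Cdh5 read 7.50, 6.24 and 4.58. Cldn5, a tight junction protein of endothelium, read 10.79, 10.49 and 10.24 in single S-shaped bodies, 10.41, 10.46 and 10.36 in the pooled S-shaped bodies, 9.35, 11.20 and 10.13 in renal vesicles, and 3.05, 2.85 and 3.10 in collecting duct. In pooled S-shaped bodies against renal vesicles its log2 change, 0.18 ± 0.355 (SE), did not pass the test (adjusted p = 0.723).

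To follow each receptor beside those markers, the mean of the 15 endothelial genes on the same array was subtracted. The offset compares different probes and has no meaning by itself, and only its change between groups is used. The offset of Ednrb was larger in pooled S-shaped bodies than in renal vesicles by 2.75, that of Flt1 by 2.35, that of Tie1 by 2.17, that of Kdr by 1.40 and that of Nrp1 by 0.62. That of Tek was smaller, at -0.73, so Tek rose by less than the endothelial mean. For these 6 genes the groups did not overlap, and the two-sided exact permutation p was 0.1, the smallest that 3 arrays against 3 allow. Over all genes tested, 0.932% had a larger offset without overlap and 88% a smaller one, so a smaller offset, as for Tek, was the usual case. The endothelial mean itself rose from 5.13 in renal vesicles to 7.20 in pooled S-shaped bodies, so a gene that does not change has a smaller offset. The offset of Eng, 3.63 ± 0.23 in pooled S-shaped bodies and 3.5 ± 0.16 in renal vesicles (SD, n = 3 each), overlapped (difference 0.13, exact permutation p = 0.5). In single S-shaped bodies against renal vesicles, Ednrb, Flt1, Tie1, Kdr and Eng had larger offsets without overlap, by 3.08, 2.90, 1.83, 1.27 and 0.57, and Tek a smaller one, at -1.32 (exact permutation p = 0.1 each). There Nrp1 overlapped (0.62, exact permutation p = 0.3), and the shares over all genes were 1.03% larger and 80% smaller. Floor values in renal vesicles hold down both sides of this subtraction, so its sizes are not fold changes. The mean also includes Aplnr and Lyve1, which were above background on no array. Its members Gja5 and Cldn5 changed by only 0.27 and 0.18 in pooled S-shaped bodies against renal vesicles. Such genes make the rise of the mean smaller, so part of each larger offset follows from the choice of the 15 genes.

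**Figure D4:**
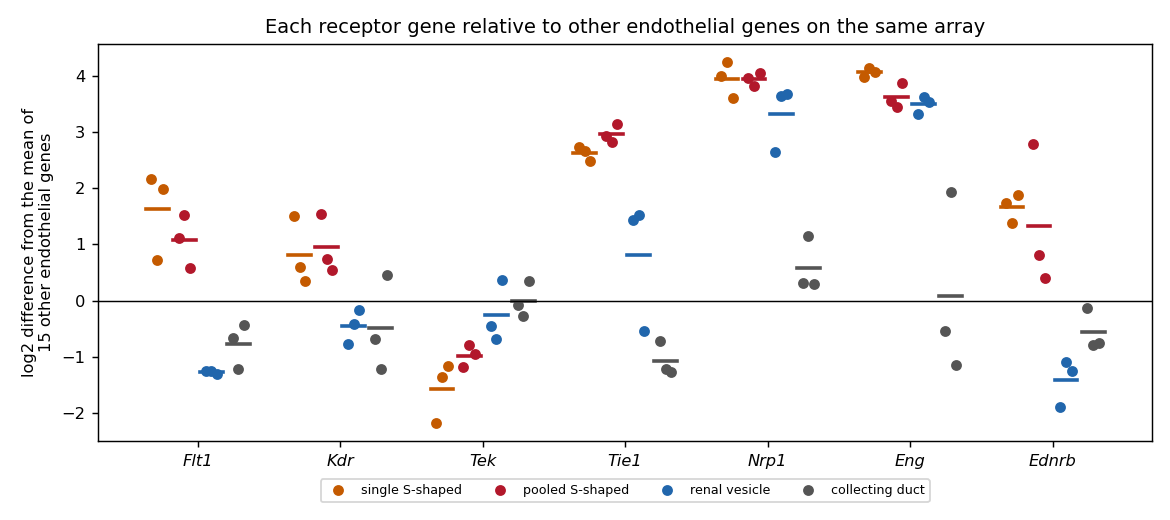
Log2 difference of each receptor gene's leading probe set from the mean of 15 other endothelial genes on the same array; dots are arrays and coloured lines are group means. Flt1, Kdr, Tie1 and Ednrb sit higher in pooled S-shaped bodies than in renal vesicles, Tek sits lower (-0.98 against -0.25), and Eng overlaps.

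Markers of other cell types moved as well. The mean level of 15 stroma markers ran from 7.34 to 7.47 in single S-shaped bodies, from 7.28 to 7.44 in pooled S-shaped bodies, from 5.03 to 6.61 in renal vesicles and from 3.72 to 3.87 in collecting duct. That of 9 podocyte markers ran from 8.04 to 8.57 in single S-shaped bodies, from 8.0 to 8.16 in pooled S-shaped bodies, from 5.98 to 7.51 in renal vesicles and from 4.16 to 4.40 in collecting duct. That of 10 pericyte and mesangial markers ran from 5.51 to 6.19 and from 5.61 to 5.90 in single and pooled S-shaped bodies, from 4.80 to 5.18 in renal vesicles and from 4.47 to 4.72 in collecting duct. Among the podocyte markers, Podxl and Lmx1b were above background on no array. Cd2ap averaged 8.11 in collecting duct, above its 7.64 in pooled S-shaped bodies and 6.60 in renal vesicles. Tcf21 is counted in both the stroma and the podocyte mean. Of the 12 macrophage and leukocyte markers, Adgre1, C1qa, Cd68, Fcer1g and Ptprc were above background on no array, while 4 were above it on all pooled S-shaped body arrays. Of 5 tested, Csf1r and C1qb, a macrophage receptor and a complement subunit, were higher in pooled S-shaped bodies than in renal vesicles, by 1.04 ± 0.30 (adjusted p = 0.0198) and 1.36 ± 0.33 (adjusted p = 0.00833), and 0 were lower. Among all genes, 18.2% were higher and 20.2% lower in that comparison. In single S-shaped bodies 3 of 8, Csf1r, Coro1a and C1qa, were higher than in collecting duct and 0 lower. Renal vesicles had 0 of 5 higher and 2 lower than collecting duct, C1qb at -1.54 ± 0.33 (adjusted p = 0.00692) and Cd14 at -1.42 ± 0.20 (adjusted p = 0.000525). Pooled S-shaped bodies had 1 of 5 higher, Csf1r, and 1 lower than collecting duct, Cd14 at -1.29 ± 0.20 (adjusted p = 0.000489). The shares over all genes in these comparisons are given with the ligands. The part of stroma, podocyte, pericyte and macrophage RNA in the receptor differences was not tested. The actin control's 3′ to middle ratio averaged 8.69 ± 1.5 in single S-shaped bodies, 3.67 ± 0.385 in the pooled S-shaped bodies, 8.58 ± 0.611 in renal vesicles and 8.25 ± 2.09 in collecting duct (SD, n = 3 each). Set against its 5′ probe set instead, this control had a ratio of 85.7 ± 8.64 in single S-shaped bodies, 38.3 ± 7.65 in the pooled S-shaped bodies, 39.6 ± 3.61 in renal vesicles and 51.2 ± 33.4 in collecting duct. The Gapdh control ranked the groups otherwise, with its largest 3′ to 5′ ratios in pooled S-shaped bodies. There its 3′ values were 2256, 2395 and 2979 and its 5′ values 101.3, 84.69 and 140.6. In single S-shaped bodies these were 241.7, 516.2 and 479.1, and 25.78, 39.48 and 48.46. In renal vesicles they were 2787, 3100 and 2468, and 275.6, 213.4 and 299.9. The part of RNA quality in the receptor differences was not tested.

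Collecting duct and renal vesicles showed their own markers in part, and no list was specific to S-shaped bodies. Collecting duct had a mean level of 6.81 to 6.90 over 17 ureteric bud and collecting duct markers, against at most 5.94 on any other array. However, 7 of the 17 (Aqp2, Calb1, Gfra1, Lhx1, Ret, Wnt11 and Wnt7b) were not above background there. Renal vesicle replicate 3 read 8.72 for Calb1, 7.51 for Krt7 and 7.10 for Wnt11, all above background. Renal vesicles had a mean of 6.07 to 6.32 over 11 early nephron markers, against at most 5.01 on any other array. Of 9 early nephron markers tested, 1 was higher and 6 lower in pooled S-shaped bodies than in renal vesicles. In single S-shaped bodies 1 of 9 was higher and 5 lower. The shares over all genes in these comparisons are given with the ligands. Wnt4 was at the floor on every S-shaped body array. Deposited mean intensity ran from 21.5 to 70.6 on single S-shaped body arrays, from 203 to 239 on pooled S-shaped body arrays, from 108 to 131 on renal vesicle arrays and from 273 to 363 on collecting duct arrays, and 48.3% to 59.7% of probe sets were above background.

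Across all 12 arrays, likeness was measured as the root mean square difference of centred log2 levels, where a small value means a like profile and the spread between groups carries most weight. Among 6772 genes, the nearest to Flt1 were Klf2 (0.46), Dhx36 (0.58) and Emcn (0.59), and the nearest to Kdr were Sgk1 (0.59), Lgals1 (0.62) and Dkk2 (0.64). Nearest to Tie1 were Cdh5 (0.45), Igfbp3 (0.54) and Gimap4 (0.69), and nearest to Nrp1 were Zeb1 (0.50), Cdh4 (0.55) and Npr3 (0.58). Another member was nearest in a pair of cases: Nrp1 to Eng (0.60), followed by Glg1 (0.80) and Cdh4 (0.86), and Flt1 to Ednrb (0.64), followed by Ankrd33b (0.66) and Klf2 (0.67). Tek, whose levels span a small range, was nearest to Pfdn2 (0.29), Septin10 (0.33) and Gucy1b1 (0.34). For the mean profile of the 7 receptors the nearest genes were Emcn (0.39), an endothelial sialomucin, Zeb1 (0.45), Cmtm8 (0.46), Dpp4 (0.47), Efnb1 (0.48), Sgk1 (0.48), Myl9 (0.49), Col5a2 (0.50), Lmo2 (0.52) and Kcnj8 (0.60). Between members the distances ran from 0.60 for Nrp1 and Eng to 2.31 for Tek and Tie1.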

How the data were processed

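RNA of the 12 samples was isolated with TRIzol, put through 2 rounds of amplification with an Arcturus kit and biotin-labelled for MG_U74Av2 arrays, per the labels' protocols. The deposited intensity values are linear and partly negative, 1 column per array, and GCOS is named in the submitters' processing notes; its summary and scaling method is not given in the sources used here. Array medians differed by up to 17.8 times, so the 12 arrays were quantile normalized here without 66 controls. Negative values became 0, and levels are log2 after adding 7.22, which is 25% of the median. The dimmest 25% of probe sets by mean were dropped, which left 9316 in each fit; 9 of the 10 member probe sets passed in every comparison, and the dim Tie1 one only between single and pooled S-shaped bodies. Changes were tested with limma 3.58.1 (R 4.3.3, eBayes with trend, Benjamini-Hochberg): 1 fit over the 9 arrays of renal vesicle, pooled S-shaped body and collecting duct, and fits of 6 arrays for single S-shaped bodies. Gene names came from the platform annotation, which gave 10833 probe sets 1 symbol, 396 several and 1193 none; the probe set of highest mean led each gene. All members were named, with, from each list, chosen binding partners and some members of large change, and for each profile the nearest genes. Members and lists were chosen with earlier results of these data known. The number of arrays limits the precision. The script was tested on simulated data.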

Additional observations from a re-analysis of the deposited data

How the results depend on the processing

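Of 1037 log2 changes of member probe sets under other settings, 1008 kept their direction and their side of the threshold, 13 gained a call, 11 lost one and 5 reversed. All 5 reversals came from leaving the arrays on the deposited scale, where the median of all probe sets itself shifted by -2.20 for single against pooled S-shaped bodies, -2.56 for single against collecting duct and -1.06 for single against renal vesicle: Flt1 (98452_at) -2.20, Eng -1.93 and Ednrb -2.44 in the first, Tek -0.65 in the second and Nrp1 (92773_at) -0.09 in the third. On that scale the share of higher calls was 3.29%, 25%, 93.9%, 0.217%, 2.4% and 4.91% for renal vesicle against collecting duct, pooled against collecting duct, pooled against renal vesicle, single against pooled, single against collecting duct and single against renal vesicle, against 51.5%, 47.8%, 47.8%, 62.2%, 47.3% and 46.4% after quantile normalization. It called 7254, 5436, 8298, 8259 and 4300 probe sets, against 2213, 3422, 37, 3127 and 2512, in all but pooled against collecting duct. Single against pooled also gave 141 with 75th percentile scaling (80.1% higher) and 426 with all 12 arrays in the fit. Requiring a change of at least 2-fold left 1319, 2299 and 2125 calls in the first 3 comparisons, where pooled against collecting duct had 3583. With the replicate number as a block, 1372 were called for renal vesicle against collecting duct and 848 for single against renal vesicle. Eng then lost its call in pooled S-shaped bodies against renal vesicles (2.13 ± 0.71, adjusted p = 0.0594). Same-numbered deviations correlated at -0.08 to 0.05, so no pairing by number was seen. With 3 arrays a group this cannot exclude pairing, and the labels do not state it. No block could be fitted for single against pooled or collecting duct. Leaving out 1 array gave 1640 to 2272, 2886 to 3733, 2793 to 3419, 1 to 62, 2117 to 3290 and 1521 to 2332 calls in the order above, and 3 to 5, 7 to 7, 6 to 7, 0 to 0, 6 to 7 and 6 to 6 receptors called higher. Without the filter on dim probe sets Eng in pooled S-shaped bodies against renal vesicles had an adjusted p of 0.0733 and Tek in single S-shaped bodies against collecting duct 0.0739. Tek in renal vesicles against collecting duct passed with a smaller pseudocount (0.0474), no trend (0.0308) and array weights (0.0451). A pseudocount of 50, chosen after seeing the data, changed no receptor's call. The causes were not tested.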

Other observations

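Red blood cell markers had a mean level of 5.65 to 7.35 in single S-shaped bodies, 6.82 to 7.42 in pooled S-shaped bodies, 4.48 to 5.60 in renal vesicles and 4.57 to 4.86 in collecting duct. Of 7 tested, 5 were higher and 0 lower in pooled S-shaped bodies than in renal vesicles, by limma, and 5 higher than in collecting duct. Among all genes, 18.2% were higher and 20.2% lower in pooled S-shaped bodies than in renal vesicles. Against collecting duct 18.9% were higher in pooled S-shaped bodies. Neural and glial markers were 0 of 6 higher and 1 lower in pooled S-shaped bodies than in renal vesicles. Of 10 pericyte and mesangial markers tested, 2 were higher and 0 lower in pooled S-shaped bodies than in renal vesicles, and 8 did not pass, among them Cnn1 (-1.12 ± 0.47, adjusted p = 0.0869), Anpep (-0.45 ± 0.26, adjusted p = 0.212) and Notch3 (-0.23 ± 0.23, adjusted p = 0.482). Acta2, a smooth muscle actin of mesangial and vessel wall cells, was higher by 5.03 ± 0.39 (log2 change ± SE, adjusted p = 8.6e-06), and Des, desmin of the same cells, by 1.46 ± 0.26 (adjusted p = 0.00137).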
